A study of Danio rerio with 6 samples.

Results

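The pancreatic islet genes described here are ins, gcga, gcgb, pdx1, neurod1, pcsk1, pcsk2, isl1 and pax6b. They were chosen by gene name, and all 9 were among the 19071 genes listed for these libraries. RNA came from pooled whole larvae at 3 dpf (days post fertilization), in 3 libraries from P2RY11 mutants (labelled p2ry11 knockout, homozygous p2ry11(-/-)) and 3 from WT siblings (genotype WT) of the same heterozygous intercrosses. The mutants belong to 1 line with a short CRISPR/Cas9 frameshift deletion, which every cell of the larva carries, and both groups were raised in E3 medium with methylene blue. Values are FPKM, which scale the fragments of a gene to its transcript length and to the mapped fragments of the library, so levels are given per length. Read depth is unknown. The mutated gene p2ry11 had FPKM of 0.707, 0.853 and 1.02 in WT siblings, and each of the 3 mutant libraries listed it at 0.

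Islets are the hormone-secreting clusters of the pancreas. Beta cells make insulin, which lowers blood glucose, alpha cells make glucagon, which raises it, and delta cells make somatostatin, which restrains both. Each hormone is made as a precursor, which prohormone convertases cut inside the secretory granule. Transcription factors of the homeodomain and basic helix-loop-helix families specify these cells, and several of them also act in neurons and in the retina, while the convertases also act in neurons and in the pituitary. In RNA from whole larvae, fewer islet cells and less RNA per cell cannot be told apart, and neither can the share of a gene's RNA that comes from the islet.

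WT sibling replicate 3 stood apart from the other libraries. Its log2(FPKM + 1) values correlated with those of WT sibling replicates 1 and 2 at r = 0.968 and 0.965 across genes, whereas these correlated with each other at r = 0.993. Results that rest on it are given with and without it. Mutants and WT siblings were compared by limma on log2(FPKM + 1) for 18432 genes, and p-values were adjusted over all of them. At an adjusted p under 0.05, 8.23% of the tested genes rose in mutants and 3.98% fell. At an unadjusted p under 0.05, 4797 of the 18432 were higher and 1697 lower, which is the background for counts at that threshold. Log2 differences, taken as mutant minus WT sibling, had a median of 0.16 over the tested genes. Median-of-ratios scaling brought that median to 0.011 and moved the share of higher genes among the called ones from 67.4% to 38.4% (42.3% after quantile normalization). Member differences are therefore also given relative to the median of all genes.

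The insulin gene ins fell in P2RY11 mutants, while both glucagon genes did not pass the test. The FPKM of ins (ENSDARG00000035350), the preproinsulin gene of beta cells, were 32.5, 32.5 and 52.8 in WT sibling replicates 1, 2 and 3 and 21.4, 19.5 and 16.97 in mutant replicates 1, 2 and 3. No mutant value reached the lowest WT sibling value. Mean FPKM (± SD, n = 3 libraries per group) were 39.3 ± 11.7 for WT siblings and 19.3 ± 2.21 for mutants, a log2 difference of -0.96 (SE 0.196, limma adjusted p = 0.0272) and -1.12 relative to all genes. Of the tested genes, 0.836% had a more negative difference. After median-of-ratios scaling ins fell by 1.15 on the log2 scale (limma adjusted p = 0.0332).

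The size of the ins difference depended on WT sibling replicate 3, which had the highest ins value. Without it the log2 difference was -0.73 (SE 0.0967, limma adjusted p = 0.00196). Leaving out other libraries kept the direction, with log2 differences from -0.88 to -1.07. The adjusted p from limma was then 0.0369 without WT sibling replicate 2. It no longer passed without WT sibling replicate 1 (0.0604), mutant replicate 1 (0.0902), mutant replicate 2 (0.0998) or mutant replicate 3 (0.120).

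The glucagon precursor genes gcga and gcgb are paralogs whose products also carry glucagon-like peptides. The FPKM of gcga (ENSDARG00000079296) were 3.88, 4.29 and 6.26 in WT siblings and 4.35, 3.58 and 4.54 in mutants, so the groups overlapped. Its log2 difference was -0.16 (95% interval -0.57 to 0.26, limma adjusted p = 0.545) and -0.32 relative to all genes. The FPKM of gcgb (ENSDARG00000040907) were 10.6, 13.9 and 18.9 in WT siblings and 12.3, 13.2 and 16.8 in mutants, and these groups overlapped as well. Its log2 difference was -0.011 (95% interval -0.50 to 0.48, limma adjusted p = 0.974) and -0.18 relative to all genes. The intervals leave room for changes in either direction. In WT sibling replicate 3 the log2 level of all 3 hormone genes lay above the mean of the other WT siblings, by 0.68 for ins, 0.51 for gcga and 0.60 for gcgb, against a median of -0.12 for all tested genes. Without that library the difference was 0.016 for gcga and 0.19 for gcgb.

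**Figure D1:**
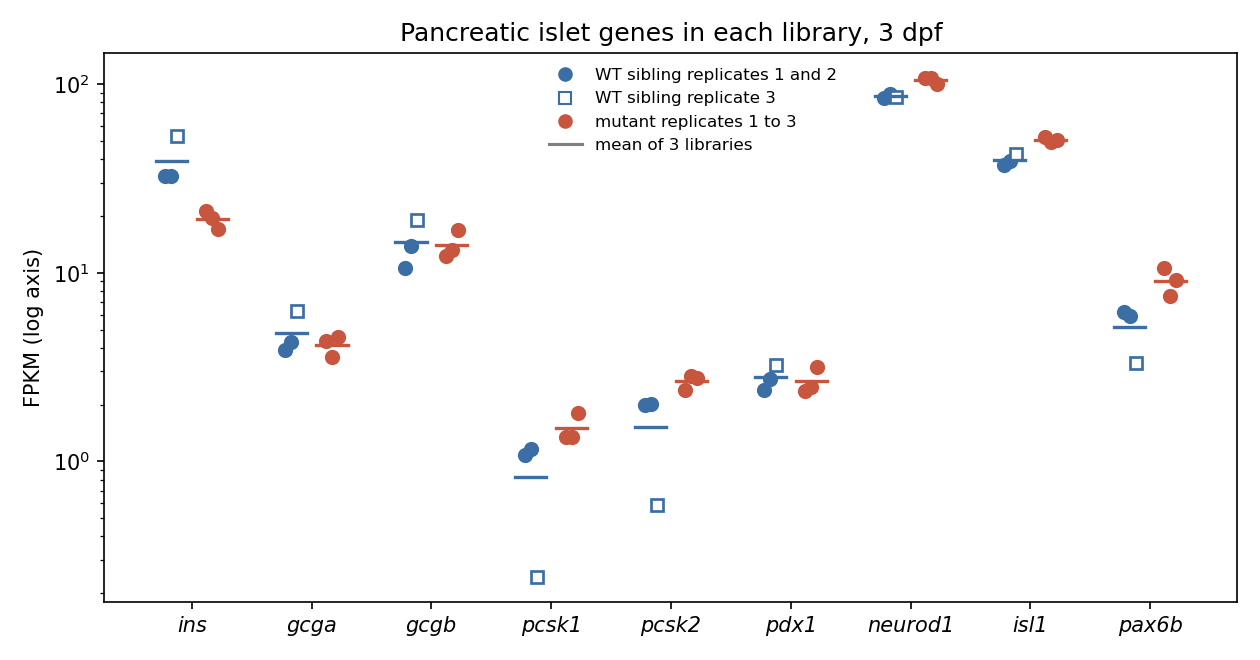
FPKM of the 9 islet genes on a log axis, with 1 point per library, WT siblings in blue (replicate 3 as an open square) and mutants in red, and bars at the mean of 3 libraries. The ins points of mutants lie between 16.97 and 21.4 FPKM, below all WT siblings, while gcga, gcgb and pdx1 overlap and WT sibling replicate 3 is lowest for pcsk1, pcsk2 and pax6b.

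Ratios between genes of the same library do not depend on how libraries are scaled. The ratio of ins to gcga was 8.38, 7.59 and 8.44 in WT siblings and 4.92, 5.43 and 3.74 in mutants. The groups did not overlap, and the log2 difference of the ratio was -0.81 with WT sibling replicate 3 and -0.78 without it. Mean ratios (± SD, n = 3 per group) were 8.13 ± 0.475 for WT siblings and 4.70 ± 0.869 for mutants, with a two-sided exact permutation p = 0.1, the smallest that 3 libraries against 3 allow. The ratio of ins to gcgb, which was examined after the values were seen, was 3.07, 2.34 and 2.79 in WT siblings and 1.73, 1.48 and 1.01 in mutants, again without overlap (exact permutation p = 0.1). In contrast, the ratio of gcgb to gcga averaged 3.00 ± 0.260 for WT siblings and 3.40 ± 0.492 for mutants (± SD, n = 3 per group, exact permutation p = 0.3), and the groups overlapped. Within these libraries ins was thus lower relative to either glucagon gene, without overlap. An exact permutation p of 0.1 does not pass 0.05, and this design cannot give a smaller value.

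**Figure D2:**
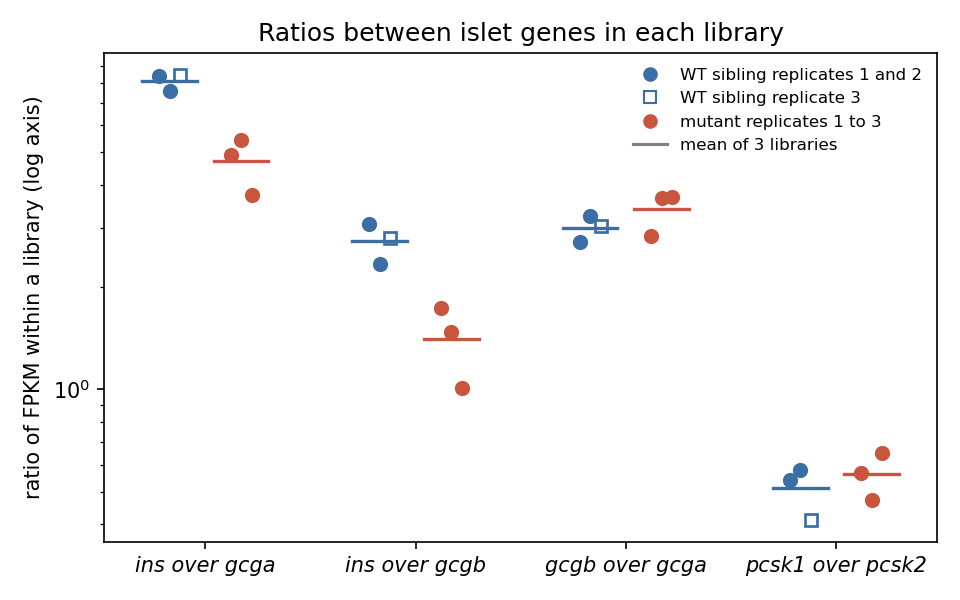
Ratio of FPKM between pairs of islet genes within each library, on a log axis, with 1 point per library and bars at the mean of 3 libraries. The ratio of ins to gcga lies between 3.74 and 5.43 in mutants and between 7.59 and 8.44 in WT siblings, while gcgb over gcga and pcsk1 over pcsk2 overlap between the groups.

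The other islet hormones listed were those of the somatostatin family, which are also made by neurons. One of them, sst1.2, fell, with mean FPKM (± SD, n = 3 per group) of 6.69 ± 2.62 for WT siblings and 2.91 ± 0.131 for mutants and a log2 difference of -0.92 (SE 0.228, limma adjusted p = 0.0447). Its FPKM were 5.85, 4.603 and 9.63 in WT siblings and 3.05, 2.89 and 2.80 in mutants, without overlap. The adjusted p was 0.0511 after median-of-ratios scaling and 0.00602 without WT sibling replicate 3. It was up to 0.153 when other libraries were left out (WT sibling replicate 1 or any mutant replicate), which ended the call. The FPKM of sst6 were 2.92, 2.01 and 3.78 in WT siblings and 1.54, 1.64 and 1.25 in mutants, also without overlap, but its log2 difference of -0.63 missed the threshold (limma adjusted p = 0.0663). It passed without WT sibling replicate 2 (0.0387) or WT sibling replicate 3 (0.0438). For sst1.1 the log2 difference was -0.61, for sst3 -0.49 and for sst2 -0.36, and their groups overlapped.

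Of the 8 islet hormone genes tested, 2 fell (ins and sst1.2) and 0 rose in limma, with 3 and 0 at an unadjusted p under 0.05. Over all tested genes 3.98% fell and 8.23% rose, and 1697 and 4797 of 18432 did at the unadjusted p. The median log2 difference of the hormone genes was -0.55, which is -0.71 relative to all genes. Without WT sibling replicate 3 the counts were 3 and 0, against 8.01% and 20.2% of all genes, and the median was -0.40 relative to all genes. Islet amyloid polypeptide, ghrelin and the second insulin gene were not analysed here.

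The prohormone convertase genes pcsk1 and pcsk2 had higher values in mutants, but neither passed the test. Their proteases cut proinsulin and proglucagon at pairs of basic residues. The FPKM of pcsk1 (ENSDARG00000002600) were 1.07, 1.16 and 0.244 in WT siblings and 1.35, 1.34 and 1.81 in mutants. Those of pcsk2 (ENSDARG00000019451) were 1.99, 2.003 and 0.591 in WT siblings and 2.38, 2.85 and 2.78 in mutants. In both genes all mutant values exceeded all WT sibling values, and WT sibling replicate 3 was far below the rest. The log2 difference was 0.49 for pcsk1 (95% interval -0.042 to 1.02, limma adjusted p = 0.167) and 0.59 for pcsk2 (95% interval -0.0044 to 1.19, adjusted p = 0.144). Relative to all genes these were 0.33 and 0.43. Without WT sibling replicate 3 the log2 differences shrank to 0.23 (adjusted p = 0.205) and 0.29 (adjusted p = 0.0916). The ratio of pcsk1 to pcsk2 averaged 0.511 ± 0.0870 for WT siblings and 0.563 ± 0.0895 for mutants (± SD, n = 3 per group, exact permutation p = 0.6), and the groups overlapped.

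Among 27 tested genes of peptide processing and secretory granules, 1 rose and 0 fell in limma, where 8.23% and 3.98% of all genes did. At an unadjusted p under 0.05 the counts were 7 and 3, against 4797 and 1697 of all 18432 genes. The median log2 difference of the 27 was 0.20, which is 0.036 relative to all genes. The gene that rose was furinb, which encodes a convertase of the general secretory pathway and not of the granule. Its FPKM were 7.25, 7.70 and 5.71 in WT siblings and 11.7, 10.8 and 10.1 in mutants, a log2 difference of 0.60 (SE 0.128, limma adjusted p = 0.0315). The call was lost without WT sibling replicate 1 or without any mutant replicate (adjusted p up to 0.127). The convertase gene pcsk7 had a log2 difference of -0.58 (adjusted p = 0.0530), and the granule protein genes chgb and vgf had 0.53 (adjusted p = 0.0626) and 0.40 (adjusted p = 0.0715). Without WT sibling replicate 3 all of these passed the test, with an adjusted p of 0.00598 for pcsk7, 0.0241 for chgb and 0.0479 for vgf. With all libraries pcsk7 also passed after median-of-ratios scaling (limma adjusted p = 0.0217) and quantile normalization (0.0120), while chgb and vgf passed after neither. WT sibling replicate 3 lay a median of 0.31 below the other WT siblings in this group. Without it 5 of 28 tested genes rose and 1 fell, where 20.2% and 8.01% of all genes did, so the larger count is no result about these genes.

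Of the transcription factor genes among the members, isl1 rose and no difference was detectable for pdx1, with neurod1 and pax6b just short of the threshold. The FPKM of pdx1 (ENSDARG00000002779), which encodes the homeodomain factor of pancreas formation and of the insulin promoter, were 2.40, 2.74 and 3.24 in WT siblings and 2.37, 2.49 and 3.18 in mutants. The groups covered nearly the same range. Its log2 difference was -0.044 (95% interval -0.39 to 0.30, limma adjusted p = 0.848) and -0.21 relative to all genes.

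The FPKM of isl1 (ENSDARG00000004023), a LIM homeodomain gene of islet cells and of motor and sensory neurons, were 37.5, 39.2 and 42.7 in WT siblings and 52.6, 49.4 and 50.4 in mutants. The lowest mutant library was above the highest WT sibling library. Mean FPKM (± SD, n = 3 per group) were 39.8 ± 2.65 for WT siblings and 50.8 ± 1.61 for mutants, a log2 difference of 0.35 (SE 0.0815, limma adjusted p = 0.0398) and 0.18 relative to all genes. After median-of-ratios scaling the difference was 0.16 (adjusted p = 0.371), which ended the call. After quantile normalization it was 0.35 (adjusted p = 0.0195), which kept the call, so the scalings differed. Without WT sibling replicate 3 it was 0.40 (adjusted p = 0.00422). Leaving out any other library ended the call (adjusted p from 0.0732 without WT sibling replicate 2 to 0.146 without mutant replicate 1, with 0.110, 0.114 and 0.141 without WT sibling replicate 1, mutant replicate 2 and mutant replicate 3).

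The basic helix-loop-helix gene neurod1 (ENSDARG00000019566), which acts in endocrine precursors, neurons and photoreceptors, was the most abundant member. Its FPKM were 84.9, 88.4 and 85.0 in WT siblings and 107.9, 107.3 and 99.9 in mutants, without overlap. The log2 difference was 0.28 (SE 0.0745, limma adjusted p = 0.0513) and 0.12 relative to all genes, and WT sibling replicate 3 was close to the other WT siblings. It was 0.089 after median-of-ratios scaling (adjusted p = 0.536) and 0.38 after quantile normalization (adjusted p = 0.0294). Without WT sibling replicate 3 it was 0.27 (adjusted p = 0.0172).

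The paired box gene pax6b (ENSDARG00000045936) acts in islet cells and in the eye and brain. Its FPKM were 6.18, 5.92 and 3.34 in WT siblings and 10.6, 7.55 and 9.11 in mutants. The groups did not overlap, and WT sibling replicate 3 was the lowest library. The log2 difference was 0.74 (SE 0.219, limma adjusted p = 0.0671) and 0.57 relative to all genes. Without WT sibling replicate 3 it was 0.50 (SE 0.129, adjusted p = 0.0223).

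Of 44 tested islet transcription factor genes, 6 rose and 2 fell, with a median log2 difference of 0.13, which is -0.030 relative to all genes. After median-of-ratios scaling 1 of the 44 rose and 2 fell, against 648 and 1038 of all genes (1517 and 733 of 18432 before scaling). Without WT sibling replicate 3, 10 of the 44 rose and 2 fell. Over all genes 8.23% rose and 3.98% fell, and without that library 20.2% and 8.01%, so the counts of genes that rose lie near the background. Besides isl1, the genes that rose were pax6a (0.44), the paralog of pax6b, neurod4 (0.40), a relative of neurod1 in retinal and other neurons, the zinc finger genes myt1b (0.65) and myt1a (0.47), and the endoderm gene foxa3 (0.49), all as log2 differences. After median-of-ratios scaling the adjusted p was 0.118 for pax6a, 0.299 for neurod4, 0.0414 for myt1b, 0.102 for myt1a and 0.0771 for foxa3. After quantile normalization the limma adjusted p of these genes was 0.0138, 0.00865, 0.0236, 0.0569 and 0.114, in the same order. The genes that fell were neurod6b, a neuronal relative of neurod1, and sox4b, which in zebrafish takes part in alpha cell formation. The FPKM of sox4b were 44.8, 43.6 and 27.1 in WT siblings and 22.8, 21.5 and 15.9 in mutants, without overlap, and its log2 difference was -0.89 (SE 0.217, limma adjusted p = 0.0437). It was -1.11 without WT sibling replicate 3 (adjusted p = 0.00146), and the call was lost when any other library was left out (adjusted p up to 0.153) and after rescaling to TPM. Without mutant replicate 3 the adjusted p of neurod6b was 0.0516. Of the calls for the genes that rose, none held when mutant replicate 1, mutant replicate 2 or mutant replicate 3 was left out.

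Over the 9 members, 1 gene rose (isl1) and 1 fell (ins). A single gene in each direction lies near the background shares of 8.23% and 3.98%. In 5 members (isl1, neurod1, pax6b, pcsk1 and pcsk2) all mutant values exceeded all WT sibling values, and in 1 (ins) all lay below. Over all tested genes these shares were 35.0% and 11.7%. The median log2 difference of the members was 0.28, which is 0.12 relative to all genes, and the range was -0.96 to 0.74. Without WT sibling replicate 3, neurod1, isl1 and pax6b rose and ins fell, where the background was 20.2% higher and 8.01% lower.

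**Figure D3:**
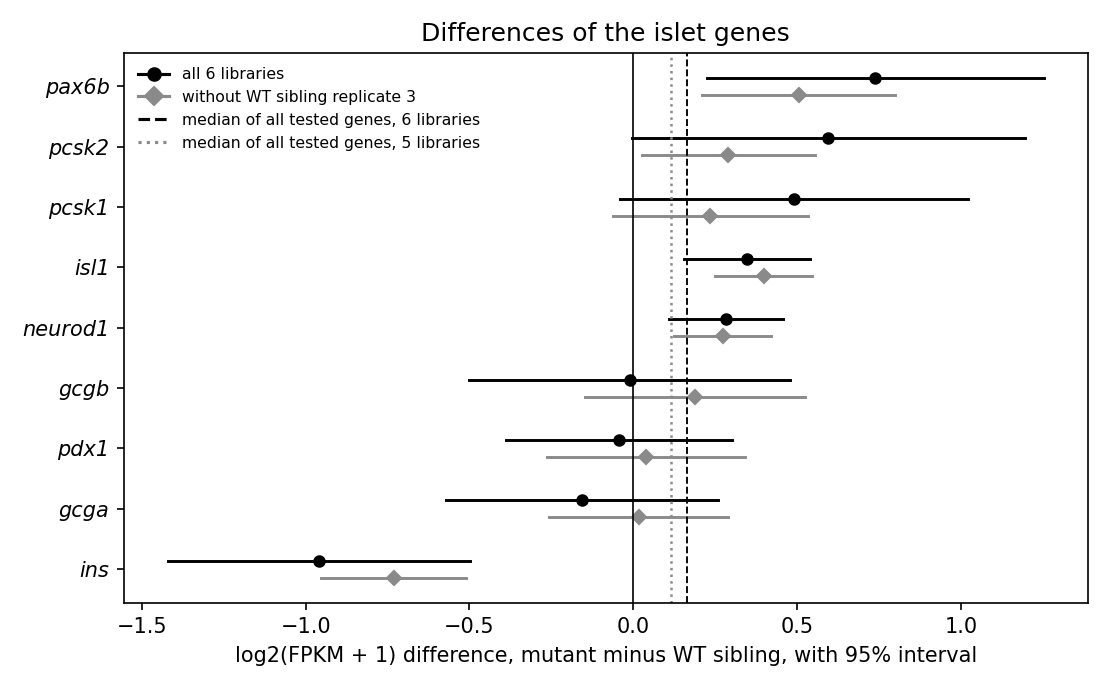
Difference of log2(FPKM + 1), mutant minus WT sibling, for each islet gene with its 95% interval from limma, in black for all 6 libraries and in grey without WT sibling replicate 3. Vertical dashed and dotted lines mark the median of all tested genes (0.16 and 0.12), and the interval of ins lies below 0 in both, from -1.42 to -0.50 and from -0.95 to -0.51.

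The order of mean levels was the same in both groups. In WT siblings it ran neurod1 (86.1 FPKM), isl1 (39.8), ins (39.3), gcgb (14.5), pax6b (5.15), gcga (4.81), pdx1 (2.79), pcsk2 (1.53) and pcsk1 (0.827). The library ranges of isl1 and ins, of pax6b and gcga, and of pcsk2 and pcsk1 overlapped there, and the other neighbors were separate. These overlaps rested on WT sibling replicate 3. In WT sibling replicates 1 and 2, isl1 (37.5 and 39.2 FPKM) lay above ins (32.5 in both). There pax6b (6.18 and 5.92) also lay above gcga (3.885 and 4.29), and pcsk2 (1.99 and 2.003) above pcsk1 (1.07 and 1.16). In mutants isl1 (50.8 FPKM) and ins (19.3) were likewise separate, as were pax6b (9.08) and gcga (4.16), and pcsk2 (2.67) and pcsk1 (1.5004). Of neighbors in that order, only pdx1 (2.68) and pcsk2 overlapped in mutants.

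Among genes by which beta cells sense glucose and release insulin, slc30a8, kcnj11l and slc2a1a rose in mutants. Of 21 tested, these 3 rose and 0 fell in limma, where 8.23% and 3.98% of all genes did. At an unadjusted p under 0.05 the counts were also 3 and 0, against 4797 and 1697 of all 18432 genes. The median log2 difference of the 21 was 0.25, which is 0.091 relative to all genes. The zinc transporter gene slc30a8, whose product loads zinc into insulin granules, had FPKM of 1.61, 2.09 and 2.41 in WT siblings and 6.09, 6.41 and 7.57 in mutants. Mean FPKM (± SD, n = 3 per group) were 2.04 ± 0.399 for WT siblings and 6.69 ± 0.780 for mutants, a log2 difference of 1.34 (SE 0.147, limma adjusted p = 0.00489). The potassium channel gene kcnj11l, named after the pore subunit of the ATP-sensitive channel, had FPKM of 1.18, 1.32 and 1.34 in WT siblings and 4.66, 4.03 and 4.15 in mutants. Its log2 difference was 1.21 (SE 0.117, adjusted p = 0.00303). Both genes passed the test under all 15 alternatives, with an adjusted p of at most 0.0376 for slc30a8 and 0.0281 for kcnj11l.

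The glucose transporter gene slc2a1a also rose, with a log2 difference of 1.03 (SE 0.212, limma adjusted p = 0.0281). Its FPKM were low, at 0.718, 0.423 and a listed 0 for WT siblings and 1.601, 1.52 and 2.15 for mutants. Its call was lost when any of the mutant replicates was left out (adjusted p up to 0.121). It was also lost by an ordinary linear model and with a replicate block (limma adjusted p = 0.0520). A pseudocount of 0.1 ended the call as well, with a log2 difference of 2.39. The glucokinase gene gck, the glucose sensor of beta cells, had a log2 difference of 0.32 (95% interval -0.051 to 0.69). The gene abcc8, the regulatory subunit of the ATP-sensitive channel, had 0.35 (-0.069 to 0.76), the pore subunit gene kcnj11 0.29 (-0.24 to 0.83) and the transporter gene slc2a2 0.32 (-0.11 to 0.75). None of gck, abcc8, kcnj11 and slc2a2 passed the test, with limma adjusted p of 0.189, 0.201, 0.376 and 0.242.

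**Figure D4:**
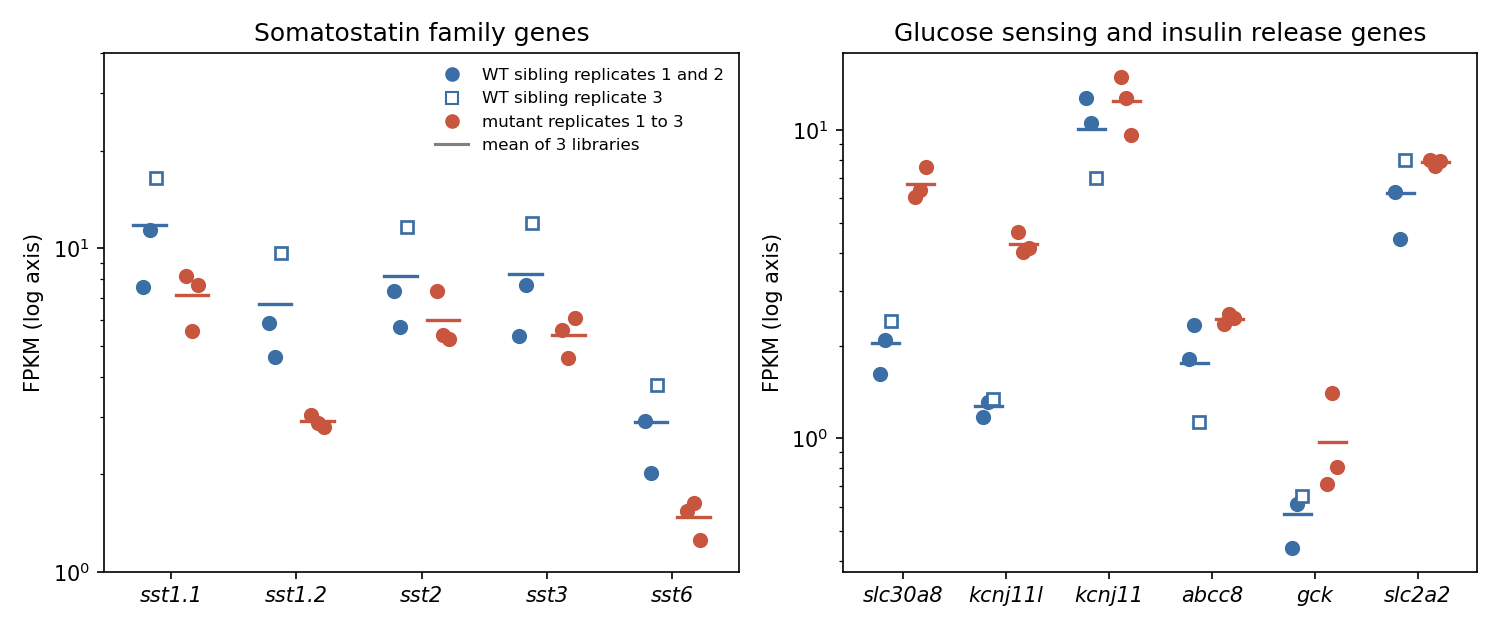
FPKM on log axes of somatostatin family genes (left) and of genes of glucose sensing and insulin release (right), with 1 point per library and bars at the mean of 3 libraries. Mutant points of slc30a8 (6.09 to 7.57) and kcnj11l (4.03 to 4.66) lie above all WT siblings, while those of sst1.2 (2.80 to 3.05) lie below.

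Markers of other cell types that express some of these genes were measured in the same libraries. As background, 8.23% of all tested genes rose and 3.98% fell, and at an unadjusted p under 0.05 these were 4797 and 1697 of 18432. Of 36 tested retina genes, 7 rose (among them tfap2a, nr2e3, rx2, vsx1, six7 and saga) and 0 fell in limma, with 12 and 0 at an unadjusted p under 0.05. Their median log2 difference was 0.25, which is 0.085 relative to all genes, and their summed level was 479 to 542 FPKM in WT siblings and 595 to 668 in mutants. Each of the 7 calls was lost when any mutant replicate was left out. After median-of-ratios scaling 1 of the 36 retina genes, not named here, rose and 0 fell. None of the retina genes named here passed then (limma adjusted p from 0.0633 for nr2e3 to 0.215 for vsx1). After quantile normalization tfap2a (limma adjusted p = 0.00946), nr2e3 (0.0299) and vsx1 (0.0355) passed, while rx2 (0.0793), six7 (0.141) and saga (0.375) did not. Without WT sibling replicate 3, 12 retina genes rose and 0 fell, where 20.2% and 8.01% of all genes did. Of 29 pan-neuronal genes, 1 rose (elavl3, by 0.56) and 1 fell (sncb, with -0.41), both calls being lost when WT sibling replicate 1 or any mutant replicate was left out, and their summed level was 1493 to 1557 FPKM in WT siblings and 1464 to 1559 in mutants. After median-of-ratios scaling 0 of the 29 pan-neuronal genes rose and 4 fell, against 648 and 1038 of all genes (1517 and 733 of 18432 before scaling). With that scaling elavl3 lost its call (limma adjusted p = 0.117) and sncb kept it (0.0215). With quantile normalization elavl3 kept its call (limma adjusted p = 0.00668) and sncb lost it (0.0638). Without WT sibling replicate 3, 5 pan-neuronal genes rose and 4 fell, where 20.2% and 8.01% of all genes did. Of 18 motor and sensory neuron genes, 0 rose and 0 fell in limma, with 3 and 0 at an unadjusted p under 0.05, and their summed level was 137 to 149 FPKM in WT siblings and 148 to 161 in mutants. None of these markers was at 0 in every library. The part of retina and neurons in the values of isl1, neurod1, pax6b and pax6a was not tested.

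Exocrine pancreas genes, which mark the tissue around the islet, moved in both directions. Only 11 of 33 exocrine marker symbols were found among the listed genes. Of 10 tested, 1 rose and 2 fell, where 8.23% and 3.98% of all genes did. The median log2 difference of the 10 was -0.24, which is -0.41 relative to all genes. The trypsin gene try had FPKM of 4.51, 4.59 and 4.36 in WT siblings and 1.88, 1.12 and 1.27 in mutants, a log2 difference of -1.19 (SE 0.147, limma adjusted p = 0.00723, and 0.0542 without mutant replicate 3). The elastase gene ela2l had a log2 difference of -0.66 (SE 0.139, limma adjusted p = 0.0301). This call was lost when any library other than WT sibling replicate 3 was left out (adjusted p up to 0.127), and after rescaling to TPM. The gene listed as zgc:66313, named amy2al1 for an amylase in the gene name table, rose, with mean FPKM (± SD, n = 3 per group) of 0.571 ± 0.0839 for WT siblings and 3.45 ± 0.156 for mutants (log2 difference 1.504, limma adjusted p = 0.00142). The acinar and retinal factor gene ptf1a had 0.58 (adjusted p = 0.0563, and 0.00317 without WT sibling replicate 3). The summed level of all listed exocrine genes was 22.6 to 26.3 FPKM in WT siblings and 23.5 to 26.4 in mutants, of which ptf1a, also a retina marker, made up 6.34 to 9.72 and 10.6 to 13.1. Without ptf1a, a choice made after the values were seen, the sums were 16.3, 18.8 and 16.6 FPKM in WT siblings and 13.96, 12.3 and 12.9 in mutants, lower and without overlap. That separation rested on try. In WT sibling replicate 1 the sum of 16.3 FPKM included try at 4.51, and in mutant replicate 1 that of 13.96 included try at 1.88. Without try as well, mutant replicate 1 thus lay above WT sibling replicate 1, and the groups overlapped. The part of exocrine or total pancreas size in the ins values was not tested.

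Pituitary and hypothalamus genes were examined because both convertases act there. Of 14 tested, 0 rose and 1 fell in limma, where 8.23% and 3.98% of all genes did. At an unadjusted p under 0.05 the counts were 0 and 2, against 4797 and 1697 of all 18432 genes. The median log2 difference of the 14 genes was -0.33, which is -0.49 relative to all genes. The gene that fell was the vasopressin gene avp, with FPKM of 4.604, 2.22 and 5.79 in WT siblings and 1.28, 0.750 and a listed 0 in mutants (limma adjusted p = 0.0357, and up to 0.118 when WT sibling replicate 1 or a mutant replicate was left out). The summed level of the 14 genes was 27.1 to 35.5 FPKM in WT siblings and 19.6 to 25.5 in mutants. These sums include avp. In WT sibling replicate 1 the sum was 28.7 FPKM with avp at 4.604, and in mutant replicate 1 it was 25.5 with avp at 1.28. Without avp mutant replicate 1 thus lay above WT sibling replicate 1, and the groups overlapped. The part of the pituitary and hypothalamus in the values of pcsk1 and pcsk2 was not tested.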

How the data were processed

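The authors trimmed reads with cutadapt 1.17, aligned them with HISAT2 2.1.0, estimated transcripts with StringTie 1.3.3 and deposited FPKM per gene from Ballgown. The paper names the assembly GRCz11 and the processing notes name GRCh37, while gene IDs and names are those of zebrafish. Gene filters and the strand setting are not given in the sources used here. The unit was blank in the header of a pair of WT sibling tables, whose values lay in the same range. Reads of paralogs can be shared. No pair of libraries had more than 15 genes between 0 and 0.1 FPKM in common, so depth was not recovered and no counting error is given.

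The 18432 genes whose FPKM averaged 0.5 or more (639 were left out) were tested with limma 3.58.1 in R 4.3.3 on log2(FPKM + 1), which understates changes of low genes, using eBayes with a trend, no covariate, two-sided p-values and Benjamini-Hochberg adjustment, called at 0.05. Intervals cover 95% and are not adjusted. The test was checked on simulated data with equal spread in every library and no outlying library. That check therefore does not cover WT sibling replicate 3 or the choice of scaling. Single ratios were compared by exact permutation. Alternatives were pseudocounts 0.1 and 0.5, no filter, a filter at an average of 1 FPKM, a replicate block, an ordinary linear model, rescaling to TPM, quantile normalization, median-of-ratios scaling and leaving out each library. Gene lists covered islet hormones, islet transcription factors, peptide processing, glucose sensing, insulin and glucagon signaling, exocrine pancreas, gut, retina, neurons, motor and sensory neurons, and pituitary and hypothalamus. A gene name table supplied other symbols where a listed one was not found. Genes named were drawn from p2ry11, the members, listed genes that passed the test, up to 4 with the smallest p per list, and the 3 genes most like each of ins, gcga and gcgb. Others named (sst2, sst3, gck, abcc8, kcnj11, slc2a2, insra, insrb, gcgra and gcgrb) were chosen after their values were seen. One retina gene that passed the test is not reported here by name. Members and lists were chosen with earlier results of these data known. No source tells if pools were taken from different clutches, and the spread behind each p-value may be technical. Figures used matplotlib 3.10.9 in Python 3.11.15. Coordinates and sequences are not given, since no genome or sequence table of the build was used here.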

Additional observations from a re-analysis of the deposited data

How the results depend on the processing

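The log2 difference of ins stayed negative under all 15 alternatives, from -1.15 to -0.73, and that of isl1 positive, from 0.16 to 0.46. An ordinary linear model ended both calls (ins -0.96, isl1 0.35) and turned neurod1 (0.28) into one, as did rescaling to TPM (0.39) and quantile normalization (0.38). Median-of-ratios scaling ended the call of isl1 (0.16), while quantile normalization kept it (0.35). After rescaling to TPM gcgb was 0.092 and pdx1 0.040, both of changed sign and without a call. With single libraries left out, log2 differences ranged from -1.07 to -0.73 for ins, 0.31 to 0.40 for isl1, 0.26 to 0.32 for neurod1, 0.50 to 0.87 for pax6b, -0.27 to 0.016 for gcga, -0.20 to 0.19 for gcgb and -0.14 to 0.039 for pdx1. pcsk1 and pcsk2 had no call under any alternative. Of all genes, 1517 rose and 733 fell. Median-of-ratios scaling gave 648 higher and 1038 lower, quantile normalization 969 and 1321, the ordinary linear model 624 and 255, and single libraries left out from 114 to 3747 higher and 71 to 1488 lower. Causes were not tested beyond the fewer libraries. Libraries of the same number deviated together with r of 0.016, 0.072 and 0.138, and those of different numbers with r from -0.132 to 0.113. With 3 libraries per group, these values cannot settle if the replicate numbers pair them. With a replicate block, 672 genes rose and 404 fell, ins kept its call (adjusted p = 0.0494 from limma) and isl1 lost it (0.35, adjusted p = 0.0795). Depth is unknown, so the precision of low members such as pcsk1 is known only from the spread between libraries.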

Other observations

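Among genes that act downstream of the islet hormones, irs2a and pik3r1 rose in P2RY11 mutants. Of 31 tested genes of insulin and glucagon receptor signaling, these 2 rose and 0 fell in limma, with 7 and 1 at an unadjusted p under 0.05. Over all tested genes 8.23% rose and 3.98% fell, and 4797 and 1697 of 18432 did at the unadjusted p. The group's count thus lies near the background. Its median log2 difference was 0.27, which is 0.11 relative to all genes. The gene irs2a, an adaptor of the insulin receptor, had FPKM of 1.55, 1.67 and 1.44 in WT siblings and 3.78, 3.45 and 2.75 in mutants, a log2 difference of 0.75 (SE 0.135, adjusted p = 0.0203 from limma). The regulatory subunit gene pik3r1 of phosphatidylinositol 3-kinase rose by 0.48 (SE 0.106, adjusted p = 0.0337). After quantile normalization the limma adjusted p was 0.0568 for irs2a and 0.0403 for pik3r1, and after median-of-ratios scaling 0.0285 and 0.0713. Both calls were lost without WT sibling replicate 1 or any mutant replicate (adjusted p up to 0.0890 and 0.133). The receptor genes did not pass the test, with log2 differences of 0.30 for insra (adjusted p = 0.204), 0.85 for insrb (adjusted p = 0.146), 0.20 for gcgra (adjusted p = 0.251) and 0.039 for gcgrb (adjusted p = 0.919). WT sibling replicate 3 lay a median of 0.33 below the other WT siblings in these genes, and without it 6 rose and 1 fell, where 20.2% and 8.01% of all genes did.

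Gut and enteroendocrine genes had 2 of 17 higher and 1 lower, where 8.23% and 3.98% of all tested genes were, so these counts lie near the background. Without WT sibling replicate 3, 5 of 16 tested rose and 3 fell, where 20.2% and 8.01% of all genes did. The epithelial genes anxa2b and vil1 rose by 0.80 (adjusted p = 0.0203 from limma) and 0.61 (adjusted p = 0.0319), and the peptide gene vipb went from 1.03, 1.49 and 1.00 FPKM in WT siblings to a listed 0, 0.597 and 0.330 in mutants (adjusted p = 0.0478). Without mutant replicates, 1 at a time, these calls were lost (adjusted p up to 0.101, 0.123 and 0.148), and they were lost for vil1 and vipb without WT sibling replicate 1 and for vipb without WT sibling replicate 2.

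Over the 6 libraries, the genes whose log2(FPKM + 1) followed ins most closely were her15.1, CABZ01078594.1 and dhdhl, each with Pearson r = 0.999. For gcga they were glo1 (r = 0.998), brk1 (0.997) and si:ch211-206k20.5 (0.996), and for gcgb tollip (0.995), vtnb (0.992) and atg12 (0.986). The genes named were not alone, as 465 of 16405 genes had r above 0.95 with ins, 100 with gcga and 22 with gcgb over these few libraries. The members themselves fell into separate patterns. Across the same libraries ins had r = -0.93 with pcsk1 and pcsk2 and -0.92 with pax6b, whereas gcgb had r = 0.95 with pdx1. These points share 2 groups and WT sibling replicate 3, so they describe these libraries.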
